A study of Saccharomyces cerevisiae with 8 samples.

Results

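Bidirectional promoters are described here as stretches of the budding yeast genome from which 2 protein-coding transcripts start back to back. Each is a pair of open-reading-frame transcripts (ORF-Ts) on opposite strands of one chromosome that point apart without overlap, the minus-strand gene on the left, with at most 500 bp between their 5′ ends. The annotated feature limits alone decide which pairs enter, though the rule was set with earlier results of these data known. There were 905 such pairs, on 16 chromosomes, and they held 1809 of the 5171 ORF-Ts (35.0%) among 7272 annotated features; 1 ORF-T sat in 2 pairs. A pair is named below with its minus-strand gene first.

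The compact yeast genome places many neighbouring genes head to head, so that a single nucleosome-depleted region can serve both promoters and RNA polymerase II (Pol II) can leave it on either strand. Nucleosomes were not measured here, so whether a given pair shares such a region was not tested. Each gene has its own start sites and core promoter, while activators and nucleosomes in the shared region can act on both genes. Chromatin assembly factor I (CAF-I) is the chaperone that places histones H3 and H4 on newly copied DNA, and its subunits Cac1, Cac2 and Cac3 are encoded by RLF2, CAC2 and MSI1.

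Transcription was measured by native elongating transcript sequencing (NET-seq), which sequences RNA held by Pol II purified through a tagged subunit. The 8 libraries were 2 biological replicates each of 3 mutants and a wild type, all Rpb3-FLAG strains in mid-log growth in YPD: cac1Δ (strain YSB3062), cac2Δ (YSB3063), cac3Δ (YSB3064) and wild type (YSC0001). Each genotype is 1 strain name, and the wild type carries a prefix other than that of the mutants, so strain background and the deletions cannot be told apart. The libraries are bulk cultures, so more cells transcribing a gene and more polymerases on it per cell cannot be told apart either. Counted reads were 1959549 and 4679697 in cac1, 2275416 and 3720649 in cac2, 7117979 and 6604240 in cac3, and 1880299 and 7705151 in wild type, of which 23.9% to 25.1% lay on paired genes. Levels are in RPKM, reads scaled to the feature's length and to the library's depth. Changes are log2 ratios of mutant over wild type with their standard error (SE). "Rose" and "fell" are used for an adjusted p below 0.05 in the edgeR quasi-likelihood test, adjusted over the 7271 features tested. The fit has no replicate block unless the block is named. "The mean of the mutants" is the average of the 3 mutants' changes.

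The 5′ ends of the pairs lay close together. The median distance was 188 bp, the quartiles were 148 and 284 bp, and the shortest distance was 12 bp. By class, 71 pairs were 1 to 100 bp apart, 426 were 101 to 200 bp, 192 were 201 to 300 bp, 109 were 301 to 400 bp and 107 were 401 to 500 bp. All 905 distances were 4 more than a multiple of 8 bp, so the annotated ends have a grid of that step and no finer meaning. Another annotated feature reached into the gap of 127 pairs, in 11 of them a further ORF-T. The pair DSS4 / RLF2 contains a deleted gene and was counted apart, which leaves 904 pairs with 1807 members.

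Both genes of a pair were usually transcribed at levels of the same order. Over the 895 pairs with a mean of at least 5 RPKM on each gene, 489 (54.6%) stood within 2-fold of each other in wild type and 55 (6.15%) were over 8-fold apart. Wild-type levels of the 2 genes had a Spearman correlation of 0.21 across the 904 pairs. The same figure was 0.11 over 214 divergent neighbours 501 to 1000 bp apart, 0.08 over 1738 tandem neighbours and 0.09 over 1239 convergent ones. These correlations are descriptions across genes of the same libraries, and genes are not independent replicates.

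Most paired genes did not pass the test in the mutants. In the mean of the mutants 153 of 1807 members rose (8.47%) and 114 fell (6.31%). Of all 7271 features tested, 11.9% rose and 8.86% fell, and of the 3360 ORF-Ts outside such pairs 12.0% rose and 9.38% fell. The members' median change was 0.00, as was that of the other ORF-Ts. In cac1, 134 members rose and 114 fell, beside 10.8% and 8.38% of all features. In cac2, 123 rose and 72 fell, beside 9.57% and 5.94%. In cac3, 35 rose and 16 fell, beside 3.7% and 2.38%. The members' shares lay below the shares of all features in both directions in each mutant, a difference that was not tested. Without further scaling of the libraries, which moved the median of all features by 0.06, the mean of the mutants gave 261 rises and 47 falls. Without wild-type replicate 2 it gave 14 and 12, without wild-type replicate 1 it gave 84 and 43, and with replicate number as a block it gave 236 and 204.

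The 2 genes of a pair seldom changed together. In the mean of the mutants both genes rose in 8 pairs, both fell in 7, and 1 rose while the other fell in 5. In 227 pairs only 1 gene passed the test, which rose in 132 and fell in 95, and in 657 neither did. Both genes thus passed in 2.21% of the divergent pairs, beside 3.05% of tandem, 2.82% of convergent and 7.94% of the more distant divergent neighbours. Only 1 gene passed in 25.1%, 31.4%, 27.3% and 30.4% in the same order. The joint share depends on how many genes passed, so it does not measure how alike partners changed. Both-risen, both-fallen and opposite pairs numbered 15, 11 and 27 for tandem and 11, 10 and 14 for convergent neighbours. For distant divergent neighbours they numbered 0, 7 and 10. In the mean of the mutants opposite pairs were thus the smallest count in divergent pairs and the largest in the other kinds, which was not tested. Single mutants did not all keep this order. In cac1 the convergent neighbours numbered 11, 15 and 14, so opposite pairs were not the largest count there. Among divergent pairs opposite ones tied with both-fallen pairs in cac1 and outnumbered them in cac2. In cac1 the counts among the divergent pairs were 8 with both risen, 6 with both fallen and 6 opposite. In cac2 they were 7, 4 and 5, and in cac3 they were 1, 1 and 0. The cac1, cac2 and cac3 counts share the 2 wild-type libraries. With replicate number as a block the mean of the mutants gave 20, 14 and 16 pairs. With wild-type replicate 2 left out, no pair rose or fell together and 1 was opposite, and without wild-type replicate 1 the counts were 4, 3 and 2.

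**Figure D1:**
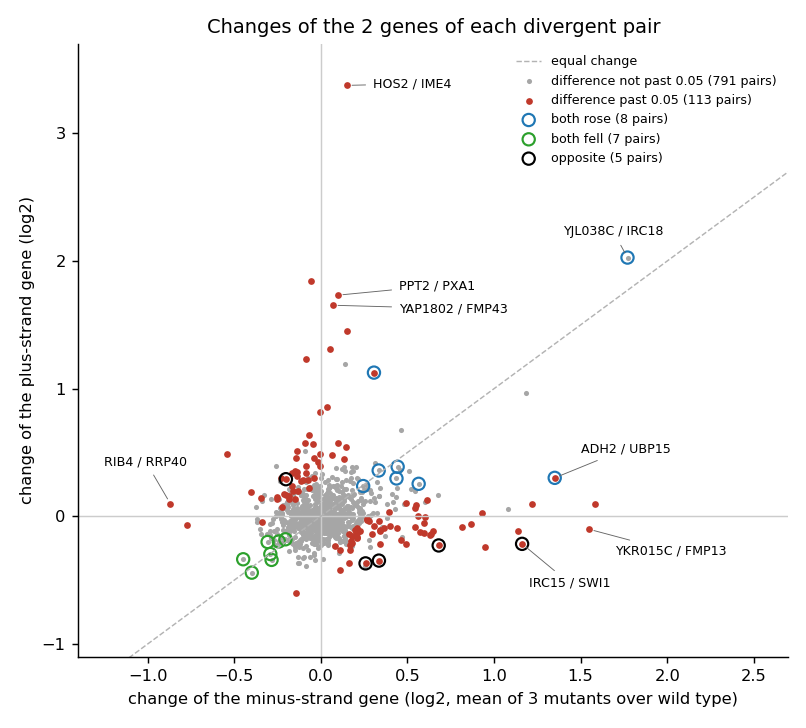
Change of the plus-strand gene against change of the minus-strand gene (log2, mean of the 3 mutants over wild type) for 904 divergent pairs. Filled red points are the 113 pairs whose 2 changes differed past an adjusted p of 0.05, grey points the rest, and rings mark pairs in which both genes passed the test; most red points lie along the axes, where 1 gene moved and its partner stayed near 0.

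To test whether 2 partners changed by unequal amounts, the plus-over-minus ratio of each pair was compared between genotypes. A positive difference means that the plus-strand gene gained relative to the minus-strand gene in the mutants. The ratio moved past an adjusted p of 0.05 in 113 of 904 pairs (12.5%) in the mean of the mutants, and in 248 at an unadjusted p below 0.05. In 92 of the 113 only 1 gene passed its own test, which rose in 72 and fell in 20. In 5 the 2 genes went opposite ways, in 2 both went the same way by unequal amounts, and in 14 neither gene passed alone. The relative gain was on the gene with the lower mean level in 95 of the 113 (84.1%), beside 64.5% of all 904 pairs. The difference between these shares was not tested. Over all pairs the median size of the difference was 0.13, and 93.5% of pairs differed by less than 0.5 on the log2 scale. Single mutants gave 100 pairs (11.1%) in cac1, 94 (10.4%) in cac2 and 31 (3.43%) in cac3. Of all 8 libraries wild-type replicate 2 was the deepest and wild-type replicate 1 the shallowest. Most of these calls were lost without replicate 2, when the shallowest library alone stands for wild type. Estimates in the mean of the mutants then moved either way, from -1.69 to -0.80 for YKR015C / FMP13 and from 1.61 to 1.82 for PPT2 / PXA1. An influence of replicate 2 itself and the loss of a library cannot be told apart here. Fewer pairs also passed without wild-type replicate 1. With replicate number as a block the counts were 184 in the mean of the mutants, 158 in cac1, 154 in cac2 and 75 in cac3.

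The 5 pairs with the largest differences were named by a rule that asks for a mean of at least 5 RPKM over the 8 libraries on both genes, which a gene high in the mutants alone can reach. PXA1, IRC15 and POX1 reached it in this way, each being below 5 RPKM in both wild-type libraries. The mean of IRC15 was 5.03 RPKM. The rule also asks that the plus-over-minus ratio of all mutant libraries lie on one side of both wild-type libraries, so that separation of the groups in these pairs was part of the choice. YKR015C, an uncharacterised gene (minus strand, chromosome XI, 466704 to 468984), stood at 13.8 and 14.3 RPKM in the cac1 libraries, 15.4 and 12.5 in cac2, 7.69 and 8.49 in cac3, and 6.67 and 3.07 in wild type. The wild-type libraries themselves differed by more than 2-fold. Its partner FMP13 (plus strand, 469316 to 471228), which encodes the Mic60 protein of mitochondrial crista junctions and starts 332 bp away, stood at 36.8 and 48.4 RPKM in the cac1 libraries, 50.1 and 41.5 in cac2, 45.3 and 48.9 in cac3, and 45.4 and 50.3 in wild type, and the groups overlapped. YKR015C rose by 1.55 (SE 0.23, edgeR adjusted p = 0.00147), FMP13 was at -0.10 (SE 0.10), and the difference was -1.69 (SE 0.23, edgeR adjusted p = 0.000401). Leaving out wild-type replicate 2, the library with the lowest YKR015C level, the difference was -0.80 (adjusted p = 0.228).

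PXA1 encodes a subunit of the transporter that brings long-chain fatty acids into the peroxisome, and PPT2, its partner 260 bp away on chromosome XVI, encodes the enzyme that activates the mitochondrial acyl carrier protein. PXA1 (plus strand, 273225 to 274769) stood at 10.02 and 12.8 RPKM in the cac1 libraries, 20.5 and 13.4 in cac2, 10.4 and 9.85 in cac3, and 3.52 and 3.84 in wild type. PPT2 (minus strand, 272133 to 272965) stood at 106 and 100.3 RPKM in the cac1 libraries, 109 and 122 in cac2, 108 and 107 in cac3, and 108 and 98.3 in wild type. The groups overlapped for PPT2. The changes were 1.73 (SE 0.23, edgeR adjusted p = 0.000683) for PXA1 and 0.10 (SE 0.06) for PPT2, with a difference of 1.61 (SE 0.25, edgeR adjusted p = 0.000786); without wild-type replicate 2 it was 1.82 (adjusted p = 0.179).

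FMP43, which encodes a subunit of the mitochondrial pyruvate carrier (plus strand, chromosome VII, 977250 to 977818), had the highest level of these rising genes. It stood at 50.1 and 42.2 RPKM in the cac1 libraries, 42.0 and 44.0 in cac2, 26.4 and 33.5 in cac3, and 11.5 and 12.6 in wild type. YAP1802, for a clathrin assembly protein (minus strand, 974846 to 977102), lay 148 bp away and stood at 63.9 and 58.6 RPKM in the cac1 libraries, 58.1 and 63.4 in cac2, 56.7 and 55.3 in cac3, and 58.0 and 55.5 in wild type. The difference between their changes was 1.57 (SE 0.17, edgeR adjusted p = 0.00019). With wild-type replicate 2 left out it was 1.72 (adjusted p = 0.059). In cac2 alone the difference stayed past the threshold without that library, at 1.83 (adjusted p = 0.0372).

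The other 2 pairs of this group were IRC15 / SWI1 and CHC1 / POX1. IRC15, for a microtubule-associated protein (chromosome XVI, 518551 to 520367), stood at 7.15 and 5.86 RPKM in the cac1 libraries, 6.21 and 6.15 in cac2, 4.94 and 5.08 in cac3, and 2.09 and 2.74 in wild type. SWI1, which encodes a subunit of the SWI/SNF chromatin remodeller (520627 to 525003), had 30.03 to 32.6 RPKM in the 6 mutant libraries and 34.5 and 37.5 in wild type. IRC15 rose by 1.16 (SE 0.22) and SWI1 fell by 0.22 (SE 0.06, edgeR adjusted p = 0.0242), so this pair also belongs to those with opposite changes; without further scaling of the libraries SWI1 no longer passed. POX1, the acyl-CoA oxidase of fatty acid breakdown (chromosome VII, 107979 to 110595), stood at 9.35 and 5.18 RPKM in the cac1 libraries, 7.96 and 6.31 in cac2, 5.20 and 4.70 in cac3, and 2.91 and 2.52 in wild type. CHC1, the clathrin heavy chain gene (102287 to 107623), had 64.2 to 76.4 RPKM in the 6 mutant libraries and 75.6 and 76.6 in wild type. The differences were -1.39 (SE 0.19, edgeR adjusted p = 0.000401) and 1.32 (SE 0.20, edgeR adjusted p = 0.000786), and without wild-type replicate 2 they were -1.61 (adjusted p = 0.11) and 1.16 (adjusted p = 0.189).

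Within single mutants the same naming rule picked mostly these pairs. In cac1 the YKR015C / FMP13 difference was -2.01 (SE 0.27, edgeR adjusted p = 0.000635), that of YAP1802 / FMP43 1.75 (SE 0.21, edgeR adjusted p = 0.000302) and that of PPT2 / PXA1 1.64 (SE 0.30, edgeR adjusted p = 0.00352). In cac2 they were -1.95 (SE 0.28, edgeR adjusted p = 0.000702), 1.68 (SE 0.21, edgeR adjusted p = 0.000275) and 1.89 (SE 0.29, edgeR adjusted p = 0.00109) in the same order. In cac3 the rule named AAC1 / FET3, described with the comparisons between mutants, together with YAP1802 / FMP43 at 1.27 (SE 0.20, edgeR adjusted p = 0.00573) and PPT2 / PXA1 at 1.32 (SE 0.28, edgeR adjusted p = 0.0218). The 3 comparisons share the wild-type libraries. When wild-type replicate 2 was left out, YKR015C / FMP13 stood at -1.11 (adjusted p = 0.119) in cac1 and -1.05 (adjusted p = 0.136) in cac2. YAP1802 / FMP43 stood at 1.90 (adjusted p = 0.0719) in cac1 and 1.42 (adjusted p = 0.314) in cac3 without that library. PPT2 / PXA1 missed the threshold in cac1 without cac1 replicate 2, at 1.34 (adjusted p = 0.0718), and in cac3 without cac3 replicate 1, at 1.29 (adjusted p = 0.098), without cac3 replicate 2, at 1.35 (adjusted p = 0.0619), without wild-type replicate 1, at 1.26 (adjusted p = 0.0832), and by DESeq2, at 1.35 (adjusted p = 0.0825). Without wild-type replicate 2 it missed it in all 3 mutants, at 1.84 (adjusted p = 0.136) in cac1, 2.09 (adjusted p = 0.104) in cac2 and 1.53 (adjusted p = 0.438) in cac3.

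**Figure D2:**
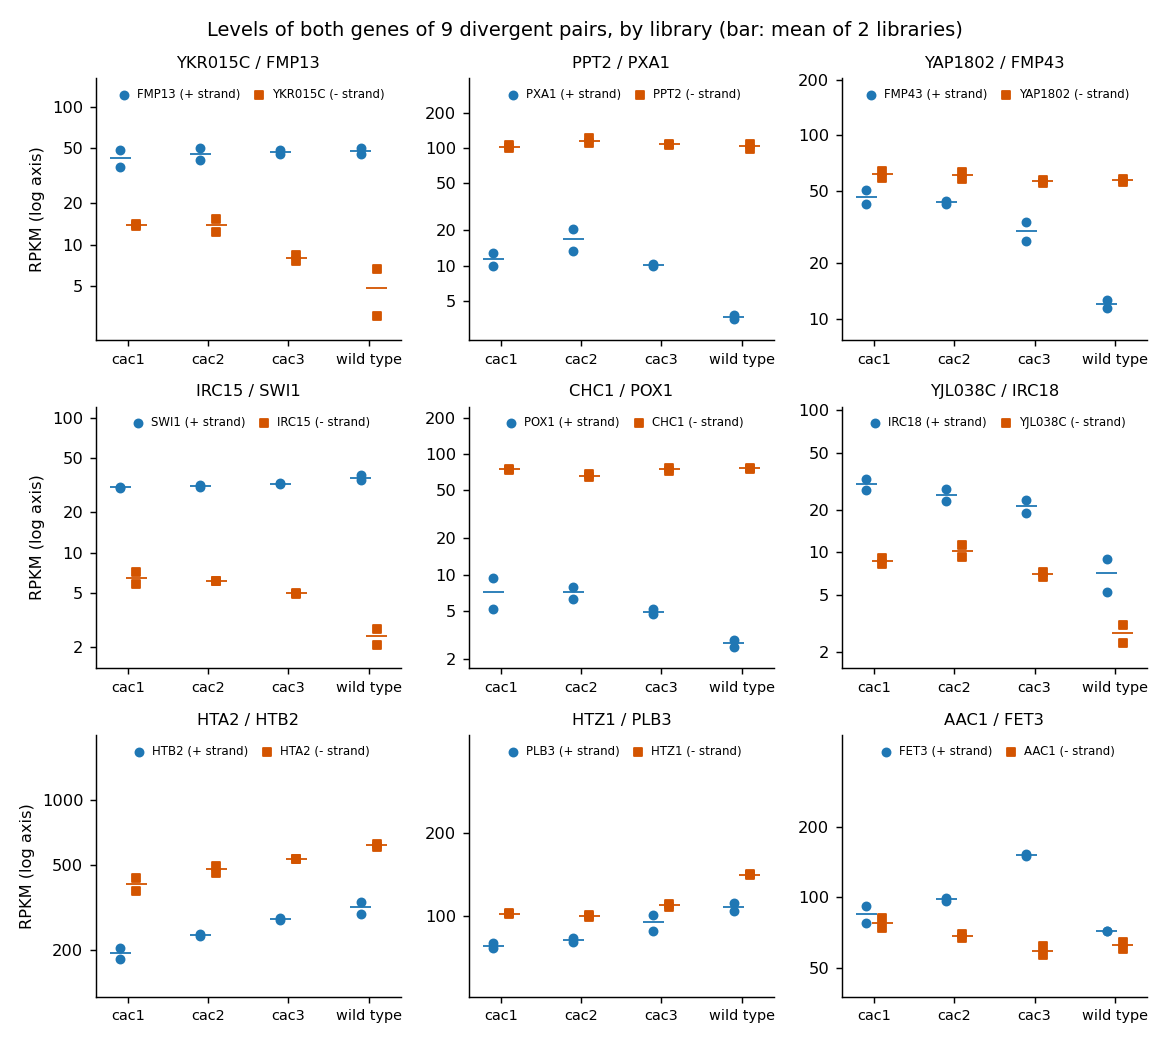
Levels (RPKM, log axis) of both genes of 9 divergent pairs in each library of cac1, cac2, cac3 and wild type, with bars at the mean of the 2 libraries. In the first 5 panels, chosen for the size of the difference, 1 gene of each pair is higher in the mutant libraries; YJL038C / IRC18 is higher in mutants on both sides, HTA2 / HTB2 and HTZ1 / PLB3 are lower on both sides, and FET3 is highest in cac3.

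Of the 8 pairs in which both genes rose, YJL038C / IRC18 moved most. IRC18 (chromosome X, plus strand, 377112 to 377416) stood at 32.8 and 27.4 RPKM in the cac1 libraries, 22.8 and 28.005 in cac2, 18.9 and 23.2 in cac3, and 8.93 and 5.31 in wild type. YJL038C (minus strand, 375036 to 376964), 148 bp away, stood at 8.29 and 9.09 RPKM in the cac1 libraries, 11.3 and 9.25 in cac2, 6.76 and 7.25 in cac3, and 3.10 and 2.30 in wild type. On both genes every mutant library exceeded both wild-type libraries. YJL038C was below 5 RPKM in both wild-type libraries and reached the limit of the naming rule through the mutant libraries. IRC18 is a short feature, so its level in wild-type replicate 1, the shallowest library, rests on few reads. IRC18 rose by 2.03 (SE 0.31, edgeR adjusted p = 0.0015) and YJL038C by 1.77 (SE 0.20, edgeR adjusted p = 0.000304), and their difference of 0.25 (SE 0.37, edgeR adjusted p = 0.743) did not pass. With wild-type replicate 2 left out, the 2 changes were 1.48 (adjusted p = 0.15) and 1.45 (adjusted p = 0.0597).

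The other risen pairs moved less. SSK22, a kinase gene of the osmotic stress pathway, rose by 0.44 (SE 0.06) and SOL2, named for 6-phosphogluconolactonase-like proteins, by 0.39 (SE 0.10), 252 bp apart on chromosome III. BUD23, an rRNA methyltransferase gene, rose by 0.33 (SE 0.08) and ARE1, a sterol acyltransferase gene, by 0.36 (SE 0.07). POR2, for a mitochondrial porin, rose by 0.31 (SE 0.07) and SDP1, for a stress-induced phosphatase of MAP kinases, by 1.13 (SE 0.24). The edgeR adjusted p of the last pair's difference was 0.0496, at 0.80, and it missed 0.05 by DESeq2 and when any 1 of 6 of the libraries was left out, the difference running between 0.69 and 1.30; the upper end was without wild-type replicate 2. In the gap of POR2 / SDP1, SUT607 on the minus strand rose by 0.54 (edgeR adjusted p = 0.0163) and SUT180 stood at 0.36 (adjusted p = 0.556). The remaining 4, outside the naming rule's first 4, were ADH2 / UBP15, TAD3 / EST2, YNL095C / APP1 (0.44 and 0.30) and YOR228C / WTM2 (0.56 and 0.25). ADH2, the glucose-repressed alcohol dehydrogenase gene, rose by 1.35 and UBP15, a ubiquitin protease gene, by 0.30. TAD3, for a tRNA deaminase subunit, rose by 0.24 and EST2, for the catalytic subunit of telomerase, by 0.24; with 12 bp between their annotated 5′ ends they are the closest pair of all. Leaving out wild-type replicate 2, the changes of SSK22, SOL2, BUD23, ARE1, POR2 and SDP1 kept their sign and were 0.46 (adjusted p = 0.0586), 0.52 (adjusted p = 0.12), 0.14 (adjusted p = 0.508), 0.34 (adjusted p = 0.118), 0.27 (adjusted p = 0.271) and 1.57 (adjusted p = 0.108).

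Pairs in which both genes fell included 2 histone promoters. HTA2 and HTB2 encode histones H2A and H2B from 1 divergent promoter (chromosome II, 235092 to 235852 and 236056 to 237152, 204 bp apart). HTA2 stood at 378 and 432 RPKM in the cac1 libraries, 494 and 457 in cac2, 531 and 529 in cac3, and 627 and 607 in wild type, and HTB2 stood at 181 and 205 RPKM in the cac1 libraries, 233 and 237 in cac2, 276 and 282 in cac3, and 295 and 336 in wild type. Both wild-type libraries lay above every mutant library on both genes, and the cac1 libraries were the lowest. HTA2 fell by 0.40 (SE 0.06, edgeR adjusted p = 0.00145) and HTB2 by 0.44 (SE 0.07, adjusted p = 0.0015), while their difference was -0.04 (SE 0.09, edgeR adjusted p = 0.832). In cac3 alone the changes were -0.22 (SE 0.07, edgeR adjusted p = 0.113) for HTA2 and -0.18 (SE 0.08, edgeR adjusted p = 0.224) for HTB2, neither of which passed. When wild-type replicate 2 was left out, the changes were -0.43 (adjusted p = 0.0434) for HTA2 and -0.34 (adjusted p = 0.0775) for HTB2. The other 3 divergent pairs of core histone genes, HTB1 / HTA1, HHF1 / HHT1 and HHT2 / HHF2, have 5′ ends more than 500 bp apart and are no members.

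HTZ1, the gene of the histone variant H2A.Z (chromosome XV, 303382 to 304454), stood at 102 and 103 RPKM in the cac1 libraries, 98.7 and 101 in cac2, 108 and 110.5 in cac3, and 141 and 141 in wild type. Its partner PLB3, a phospholipase B gene (304594 to 305354, 140 bp away), stood at 79.5 and 76.3 RPKM in the cac1 libraries, 80.5 and 83.0 in cac2, 88.6 and 101 in cac3, and 111 and 104 in wild type, and on both genes the mutant libraries were all below wild type. HTZ1 fell by 0.45 (SE 0.05) and PLB3 by 0.34 (SE 0.07), while the plus-strand SUT358, which covers nearly all of HTZ1 on the other strand and ends where PLB3 starts, rose by 0.45 (edgeR adjusted p = 0.0064). PDS1, the securin gene, fell by 0.29 (SE 0.09) with YDR115W at -0.30 (SE 0.06). CPT1, a cholinephosphotransferase gene, fell by 0.28 (SE 0.06) with NRK1, for nicotinamide riboside kinase, at -0.34 (SE 0.09), and in their gap CUT334 fell by 0.75 (edgeR adjusted p = 0.00583). Without further scaling PDS1 no longer passed. Outside the first 4 of the naming rule, the other pairs with both genes fallen were GPM1 / MCR1, OPT1 / PEX2 (-0.24 and -0.20) and RPS4B / MNL1. GPM1, the glycolytic phosphoglycerate mutase gene, fell by 0.20 and MCR1, a cytochrome b5 reductase gene, by 0.18. Without wild-type replicate 2, HTZ1 was at -0.45 (adjusted p = 0.0198), PLB3 at -0.40 (adjusted p = 0.113), PDS1 at -0.46 (adjusted p = 0.0789), YDR115W at -0.27 (adjusted p = 0.211), CPT1 at -0.31 (adjusted p = 0.0822) and NRK1 at -0.19 (adjusted p = 0.526).

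In 5 pairs the 2 genes went opposite ways. Beside IRC15 / SWI1 these were YOR292C / RPS10A, ATG11 / MAK3, MOT1 / RPS9A and EGD1 / PMA2. RPS10A, for a protein of the small ribosomal subunit (chromosome XV, 867043 to 867995), stood at 697 and 724 RPKM in the cac1 libraries, 741 and 767 in cac2, 789.5 and 774 in cac3, and 906 and 848 in wild type. YOR292C, an uncharacterised gene 404 bp away (865575 to 866639), stood at 62.4 and 65.3 RPKM in the cac1 libraries, 71.4 and 65.0 in cac2, 50.3 and 58.6 in cac3, and 36.7 and 39.5 in wild type. On neither gene did the mutant and wild-type libraries overlap. The changes were -0.23 (SE 0.04) and 0.68 (SE 0.09), and the difference of -0.91 (SE 0.10, edgeR adjusted p = 0.00019) stayed past the threshold without wild-type replicate 2, at -1.03 (adjusted p = 0.0221).

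MAK3, the catalytic subunit gene of an N-terminal acetyltransferase, had 120.3 to 143 RPKM in the 6 mutant libraries and 168 and 169 in wild type, and ATG11, for an adaptor of selective autophagy 172 bp away, had 19.8 to 24.3 RPKM in the 6 mutant libraries and 17.9 and 16.4 in wild type. RPS9A had 827 to 1167 RPKM in the 6 mutant libraries and 1193 and 1375 in wild type, and MOT1, for the ATPase that removes TATA-binding protein from DNA, had 51.4 to 59.7 RPKM in the 6 mutant libraries and 47.4 and 45.9 in wild type. In all 4 genes the mutant libraries lay on one side of wild type. MAK3 fell by 0.35 and RPS9A by 0.37, while ATG11 rose by 0.34 and MOT1 by 0.26. EGD1, for a subunit of the nascent polypeptide-associated complex, fell by 0.20 and PMA2, the minor plasma membrane proton pump gene, rose by 0.29. The differences were -0.68 (SE 0.11, edgeR adjusted p = 0.000864) for ATG11 / MAK3 and -0.63 (SE 0.11, edgeR adjusted p = 0.00262) for MOT1 / RPS9A. With wild-type replicate 2 left out, they were -0.59 (adjusted p = 0.2) and -0.50 (adjusted p = 0.189).

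Between the mutants few pairs differed. The cac1 and cac3 mutants differed in 1 of 904 pairs (0.111%) and cac2 and cac3 in 2 (0.221%). The cac1 and cac2 mutants differed in 0 pairs (0%) by edgeR and by DESeq2 and limma as well, with 61 pairs at an unadjusted p below 0.05 by edgeR. With replicate number as a block cac1 and cac3 differed in 27 pairs and cac2 and cac3 in 9. Since the counts of the 3 mutants against wild type share the wild-type libraries, only these direct comparisons bear on how the mutants differ.

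The pair that differed most between mutants was AAC1 / FET3 (chromosome XIII, 387205 to 388325 and 388769 to 390865, 444 bp apart). FET3, the ferroxidase of high-affinity iron uptake, stood at 91.9 and 77.5 RPKM in the cac1 libraries, 96.9 and 99.1 in cac2, 153 and 149 in cac3, and 72.3 and 72.3 in wild type. AAC1, a minor mitochondrial ADP/ATP carrier gene, stood at 82.0 and 74.1 RPKM in the cac1 libraries, 67.0 and 69.6 in cac2, 56.7 and 62.1 in cac3, and 60.6 and 64.6 in wild type. FET3 was higher in both cac3 libraries than in any other library, while AAC1 was lower in cac3 than in cac1 and cac2. The plus-over-minus ratio moved by 1.15 (SE 0.12, edgeR adjusted p = 0.000105) in cac3 against wild type, by -0.09 in cac1 and by 0.32 in cac2. It was lower in cac1 than in cac3, the difference being -1.24 (SE 0.12, edgeR adjusted p = 3.84e-05), and lower in cac2 than in cac3, the difference being -0.83 (SE 0.12, edgeR adjusted p = 0.00502). Without cac3 replicate 1 the last was -0.75 (adjusted p = 0.0632).

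RIB4, the lumazine synthase gene of riboflavin synthesis (chromosome XV, 54542 to 55350), stood at 189.7 and 212 RPKM in the cac1 libraries, 189 and 186 in cac2, 299 and 314 in cac3, and 433 and 395 in wild type. RRP40, an exosome subunit gene 188 bp away (55538 to 56338), stood at 149 and 127 RPKM in the cac1 libraries, 188 and 149.7 in cac2, 159 and 151 in cac3, and 149.98 and 137 in wild type. RIB4 was lowest in cac1 and cac2, between wild type and these in cac3, and did not overlap with wild type in any mutant. The plus-over-minus ratio was higher in cac2 than in cac3, by 0.81 (SE 0.14, edgeR adjusted p = 0.0222). This call was lost on leaving out any 1 of cac2 replicate 1, cac3 replicate 1, cac3 replicate 2, wild-type replicate 1 or wild-type replicate 2, with values between 0.67 and 0.89, and with limma, at 0.82 (adjusted p = 0.129).

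The pair with the gene deleted in cac1 bears on that label alone. RLF2, the gene of Cac1, stood at 14.1 and 13.5 RPKM in the cac1 libraries, 36.7 and 37.9 in cac2, 39.6 and 37.1 in cac3, and 38.9 and 37.4 in wild type, and its partner DSS4, for a guanine nucleotide exchange factor 404 bp away, stood at 87.5 and 87.1 RPKM in the cac1 libraries, 90.6 and 103 in cac2, 95.1 and 94.1 in cac3, and 95.2 and 96.4 in wild type. RLF2 was lowest in both cac1 libraries. Its change in cac1 was -1.47 (SE 0.10, edgeR adjusted p = 1.27e-05), and DSS4 was at -0.14 (SE 0.10, edgeR adjusted p = 0.355) there. Reads remained over the deleted gene, and the sources used here do not give the part that was removed.

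Pairs that hold ribosomal protein genes were examined as a group. Ribosomal protein genes are among the most transcribed in growing yeast. Of 136 genes of cytosolic ribosomal proteins 82 fell and 1 rose in the mean of the mutants, and of the 31 that sit in divergent pairs 18 fell and 0 rose. Of all 7271 features 8.86% fell and 11.9% rose. The median change of the 31 was -0.17, beside a median of 0.01 over all features. Of their 29 partners that are not ribosomal protein genes themselves 3 rose and 1 fell, with a median of 0.04. The 2 changes differed in 8 of the 30 pairs, beside 12.5% of all pairs. Falls without wild-type replicate 2 numbered 3, without wild-type replicate 1 they numbered 9, and without further scaling they numbered 10; the median ran between -0.11 and -0.18 in these 3 settings. With replicate number as a block 25 fell and 14 pairs differed, and without wild-type replicate 2 only 1 pair did.

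The largest fall of a cytosolic ribosomal protein gene in these pairs was that of RPS14B, while the pair difference of YOR292C / RPS10A, given above, was larger than that of SOP4 / RPS14B. RPS14B, for a small-subunit protein (chromosome X, 73753 to 74745), stood at 1243 and 1268 RPKM in the cac1 libraries, 1228 and 1278 in cac2, 1346 and 1434 in cac3, and 1697 and 1779.9 in wild type. SOP4, for a membrane protein of the endoplasmic reticulum 300 bp away (72589 to 73453), stood at 157 and 147 RPKM in the cac1 libraries, 162 and 149 in cac2, 152 and 153 in cac3, and 137 and 144 in wild type. RPS14B was lower in all mutant libraries and SOP4 was above both wild-type libraries in all 6. RPS14B fell by 0.42 (SE 0.04, edgeR adjusted p = 0.000104), SOP4 was at 0.11 (SE 0.06, edgeR adjusted p = 0.209), and the difference was -0.54 (SE 0.08, edgeR adjusted p = 0.000737), or -0.55 (adjusted p = 0.059) without wild-type replicate 2. RPL7B, counted together with the small RNA gene SNR59 in its intron, fell by 0.33 (SE 0.06) with its partner YPL199C at 0.01 (SE 0.09). RPS4B fell by 0.31 (SE 0.07) and MNL1, a mannosidase gene of protein quality control, by 0.20 (SE 0.06); MNL1 no longer passed without further scaling. RPS29A at -0.26 and RPL22B at -0.25 fell beside REH1 at 0.17 and YFL034W at 0.13, which did not pass. RPL23B, at -0.12, did not pass but its partner, the joint feature SPR6, SLX8, rose by 0.22. Many cytosolic ribosomal protein genes have a near-identical paralog, and the sources used here do not say how reads shared by the copies were counted.

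**Figure D3:**
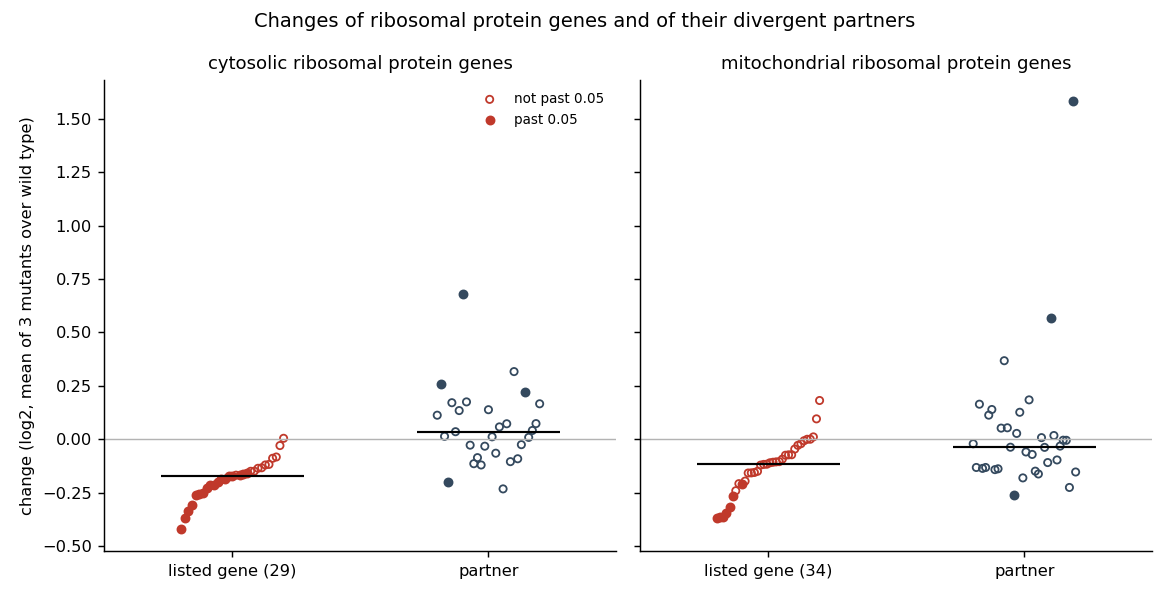
Changes (log2, mean of the 3 mutants over wild type) of 29 cytosolic and 34 mitochondrial ribosomal protein genes and of their divergent partners. Filled points passed an adjusted p of 0.05 and bars are medians. The cytosolic ribosomal protein genes centre on -0.17 and their partners near 0.

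Mitochondrial ribosomal protein genes gave a smaller count. Of the 34 in pairs 7 fell and 0 rose, beside 8.86% and 11.9% of all features, with a median of -0.11, and of their 34 partners 2 rose and 1 fell, with a median of -0.03. The largest falls were those of MRP17 at -0.37 (SE 0.09), MRPL51 at -0.37 (SE 0.07), MRPS8 at -0.36 (SE 0.10) and MRPL6 at -0.34 (SE 0.07). Their partners DID4, for an ESCRT-III subunit, YPR098C, FMP39 and IMP3, for a U3 small nucleolar RNA protein, were at -0.02, -0.13, 0.16 and -0.14 and none of these 4 passed. The partners that rose were QNQ1, by 1.58 beside MRPL15, and GCV2, for the glycine decarboxylase, by 0.57 beside MRPS17. Of these 34 pairs 5 differed, beside 12.5% of all pairs, among them FMP39 / MRPS8 at -0.50 (SE 0.14, edgeR adjusted p = 0.0352), which was not past the threshold by DESeq2, among pairs at most 300 bp apart, or without cac3 replicate 1, wild-type replicate 1 or wild-type replicate 2. Leaving out wild-type replicate 2, 1 of the 34 genes fell and 0 pairs differed, and without wild-type replicate 1, 2 fell and 3 pairs differed.

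Other gene groups were read against the 11.9% of all features that rose and the 8.86% that fell. Of 35 ribosome biogenesis genes in pairs 1 fell, RLP7 at -0.23 (SE 0.07), and it no longer passed without further scaling; its partner DOM34, for a factor that rescues stalled ribosomes, was at 0.01 (SE 0.07). Of 22 oxidative phosphorylation genes 2 rose and 4 fell, and of their 22 partners 3 rose and 3 fell. SDH1, for a succinate dehydrogenase subunit, rose by 0.41 (SE 0.10) and the joint feature ATP10, CST9 by 0.27 (SE 0.08), while ATP11, for an assembly factor of the ATP synthase, fell by 0.29 and COX9, for a cytochrome c oxidase subunit, by 0.28. None of the partners of these 4, AVT3, YLR392C, DAL82 and IDP1, passed. When wild-type replicate 2 was left out, RLP7 was at -0.29 (adjusted p = 0.15), SDH1 at 0.24 (adjusted p = 0.421), ATP10, CST9 at 0.31 (adjusted p = 0.245), ATP11 at -0.30 (adjusted p = 0.235) and COX9 at -0.27 (adjusted p = 0.29).

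Of 5 heat shock and stress genes in pairs 2 rose, beside 11.9% of all features, and 0 of their 5 partners passed. HSP82, an Hsp90 chaperone gene (chromosome XVI, 96397 to 98677), stood at 130.1 and 119.7 RPKM in the cac1 libraries, 121 and 118 in cac2, 112 and 103 in cac3, and 84.3 and 70.4 in wild type. YAR1, for a chaperone of a small-subunit ribosomal protein (99001 to 100265, 324 bp away), stood at 119 and 109 RPKM in the cac1 libraries, 126 and 128 in cac2, 117 and 112 in cac3, and 109.5 and 107 in wild type. SSA1, an Hsp70 gene (chromosome I, 139371 to 141683), had 98.3 to 116 RPKM in the 6 mutant libraries and 73.0 and 72.2 in wild type, and its partner EFB1, a translation elongation factor gene counted with SNR18 (142127 to 143439), had 1026 to 1191 RPKM in the 6 mutant libraries and 1015 and 1050.1 in wild type. Both chaperone genes were higher in all mutant libraries, by 0.61 (SE 0.08, edgeR adjusted p = 0.000631) and 0.54 (SE 0.07, edgeR adjusted p = 0.000384). The differences were -0.49 (SE 0.09, edgeR adjusted p = 0.00339) for HSP82 / YAR1 and -0.48 (SE 0.09, edgeR adjusted p = 0.00425) for SSA1 / EFB1; with wild-type replicate 2 left out they were -0.36 (adjusted p = 0.227) and -0.44 (adjusted p = 0.189).

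MAG1, a DNA repair glycosylase gene, shares its promoter with DDI1, for a ubiquitin-binding shuttle protein, over 172 bp (chromosome V, 455125 to 456101 and 456273 to 457801). MAG1 stood at 29.2 and 27.1 RPKM in the cac1 libraries, 38.2 and 27.3 in cac2, 23.7 and 27.5 in cac3, and 17.2 and 17.9 in wild type, and DDI1 stood at 50.6 and 60.1 RPKM in the cac1 libraries, 60.2 and 59.0 in cac2, 53.6 and 51.8 in cac3, and 49.7 and 49.9 in wild type. MAG1 was higher in all mutant libraries and DDI1 by smaller steps in all 6. MAG1 rose by 0.68 (SE 0.16, edgeR adjusted p = 0.0127), DDI1 was at 0.17 (SE 0.07, edgeR adjusted p = 0.0962), and their difference of -0.49 (SE 0.17, edgeR adjusted p = 0.0754) did not pass; without further scaling DDI1 passed as well, at 0.23 (adjusted p = 0.0362). Without wild-type replicate 2 MAG1 was at 0.71 (adjusted p = 0.21).

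The galactose promoter is transcribed at a low level in glucose medium. The joint feature GAL7, GAL10, for 2 enzymes of galactose use (minus strand, chromosome II, 274180 to 278428), stood at 7.64 and 6.53 RPKM in the cac1 libraries, 9.60 and 6.51 in cac2, 5.97 and 5.39 in cac3, and 4.22 and 3.23 in wild type. GAL1, the galactokinase gene (plus strand, 278856 to 281304, 428 bp away), stood at 8.77 and 6.82 RPKM in the cac1 libraries, 7.44 and 4.999 in cac2, 7.73 and 6.46 in cac3, and 9.76 and 7.37 in wild type. The mutant libraries all exceeded wild type on GAL7, GAL10, and the groups overlapped on GAL1. GAL7, GAL10 rose by 0.95 (SE 0.18, edgeR adjusted p = 0.00506), GAL1 was at -0.24 (SE 0.19, edgeR adjusted p = 0.397), and the difference was -1.17 (SE 0.19, edgeR adjusted p = 0.00108). It did not pass by DESeq2, at -1.18 (adjusted p = 0.058), or without wild-type replicate 2, at -1.19 (adjusted p = 0.179). Of 2 noncoding features that reach into this gap, SUT013 fell by 0.49 (edgeR adjusted p = 0.00713) and CUT445 was at -0.24 (adjusted p = 0.119). SUT013 (plus strand, 276760 to 278816) overlaps GAL7, GAL10 on the other strand. CUT445 (minus strand, 278428 to 280876) overlaps GAL1 on the other strand.

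The largest difference of all pairs was that of HOS2 / IME4, which lies below 5 RPKM on IME4 and was named through the list of meiosis genes, to which that limit does not apply. IME4, the mRNA methyltransferase gene of meiosis (chromosome VII, 142139 to 144107), had 30 and 41 reads in cac1, 24 and 45 in cac2, 45 and 45 in cac3, and 3 and 5 in wild type. The pooled ratio of mutants over wild type, scaled for depth, was 10.1 with an exact 95% interval of 5.02 to 23.6 for counting error alone. HOS2, a histone deacetylase gene 340 bp away (140399 to 141799), had 77.9 to 86.5 RPKM in the 6 mutant libraries and 76.0 and 72.2 in wild type and a change of 0.15 (SE 0.06, edgeR adjusted p = 0.0867); without further scaling it passed, at 0.21 (adjusted p = 0.0298). The difference was 3.22 (SE 0.39, edgeR adjusted p = 0.000216), 1.75 by limma with a pseudocount of 1, and 2.39 (adjusted p = 0.179) without wild-type replicate 2. YGL193C, an ORF-T that covers IME4 on the other strand and has its own divergent partner COX13, fell by 0.27 (edgeR adjusted p = 0.0169).

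The changes of the 2 genes of a pair were weakly alike across pairs. In the mean of the mutants the Spearman correlation between them was 0.11 over 904 pairs, and it was 0.16 in cac1, 0.07 in cac2 and 0.09 in cac3. The change of 1 gene measured in different replicates correlated at 0.62, 0.59, 0.51 and 0.51 in the same comparisons. With the 2 genes taken from different replicates, so that they share no library, the pair values were 0.10, 0.12, 0.06 and 0.08. The likeness was larger for short distances in the mean of the mutants. It was 0.22 over 71 pairs 1 to 100 bp apart, 0.13 over 426 pairs of 101 to 200 bp, 0.11 over 192 pairs of 201 to 300 bp, 0.05 over 109 pairs of 301 to 400 bp and 0.03 over 106 pairs of 401 to 500 bp. In cac1 the order was less regular, the last class standing at 0.14. Divergent neighbours 501 to 1000 bp apart had 0.02, tandem neighbours 0.04 and convergent neighbours 0.01. All these values are weak, and they describe genes that share libraries, so no p is given.

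**Figure D4:**
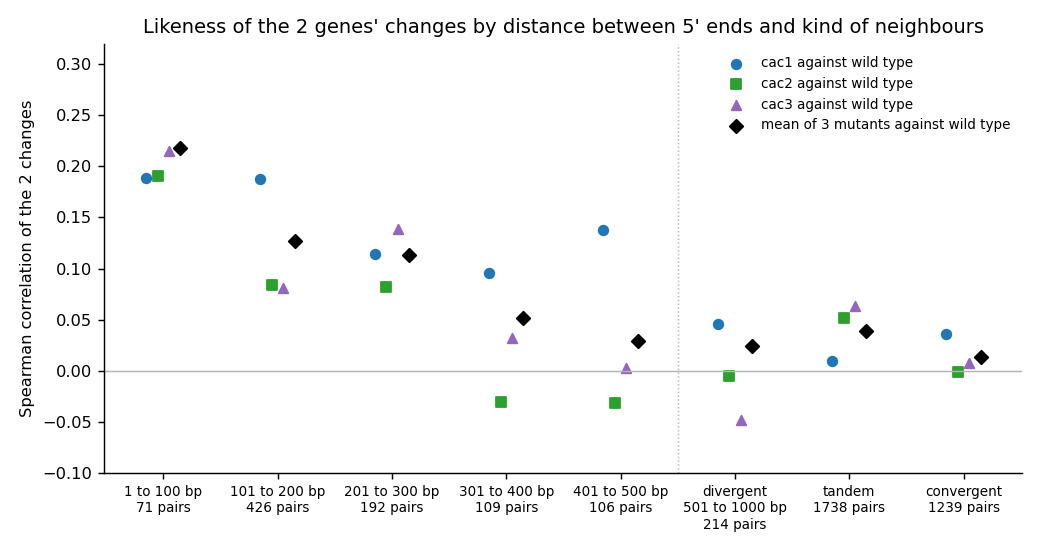
Spearman correlation between the 2 genes' changes (mutant over wild type) for divergent pairs in 5 classes of distance between the 5′ ends, left of the dotted line, and for 3 kinds of other neighbouring ORF-Ts, right of it; each symbol is 1 comparison over the pairs counted below the axis. In the mean of the mutants the values run between 0.22 at 1 to 100 bp and 0.03 at 401 to 500 bp.

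Unequal change was also counted by distance. The 2 genes differed in 8 of 71 pairs 1 to 100 bp apart (11.3%), in 37 of 426 at 101 to 200 bp (8.69%), in 23 of 192 at 201 to 300 bp (12.0%), in 20 of 109 at 301 to 400 bp (18.3%) and in 25 of 106 at 401 to 500 bp (23.6%). The median size of the difference was 0.13 to 0.14 in all 5 classes. Pairs with another annotated feature reaching into the gap differed in 22 of 127 cases (17.3%), against 91 of 777 without one (11.7%). Differences between these shares were not tested.

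The inequality of levels within pairs was lower in all mutant libraries than in wild type, at the limit of what the number of libraries can test. For each library the median absolute log2 ratio of the 2 genes' levels, with a pseudocount of 1 RPKM, was taken over the 895 pairs. It was 0.81 and 0.80 in cac1, 0.81 and 0.85 in cac2, 0.87 and 0.89 in cac3, and 0.92 and 0.91 in wild type. The mean was 0.84 ± 0.04 over the mutants (SD, n = 6) and 0.91 ± 0.01 over wild type (SD, n = 2), a difference of -0.07 with p = 0.0357 in the two-sided exact permutation test, the smallest that 28 arrangements of 8 libraries allow. Only the labelled arrangement reaches this difference, and the doubled p is 0.0714. When libraries were exchanged only within a replicate number, an alternative added after the data were seen, the exact permutation p was 0.0625, the smallest that its 16 arrangements allow. With at least 20 RPKM on both genes the difference was -0.06 (exact permutation p = 0.0714). Leaving out 1 library gave differences between -0.08 and -0.07, and with 1 wild-type library left the 7 arrangements cannot reach 0.05. Without cac1 replicate 1, cac1 replicate 2 or cac2 replicate 1 the p missed 0.05. Other kinds of neighbours showed the same order, with a wider gap between mutant and wild-type libraries, so the order was not particular to the 895 pairs. Every mutant library was below both wild-type libraries for tandem neighbours, with 1.01 to 1.09 in mutants and 1.14 and 1.17 in wild type. Convergent neighbours had 0.97 to 1.04 in mutants and 1.09 and 1.10 in wild type. Divergent neighbours 501 to 1000 bp apart had 1.29 to 1.35 in mutants and 1.49 and 1.53 in wild type.

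**Figure D5:**
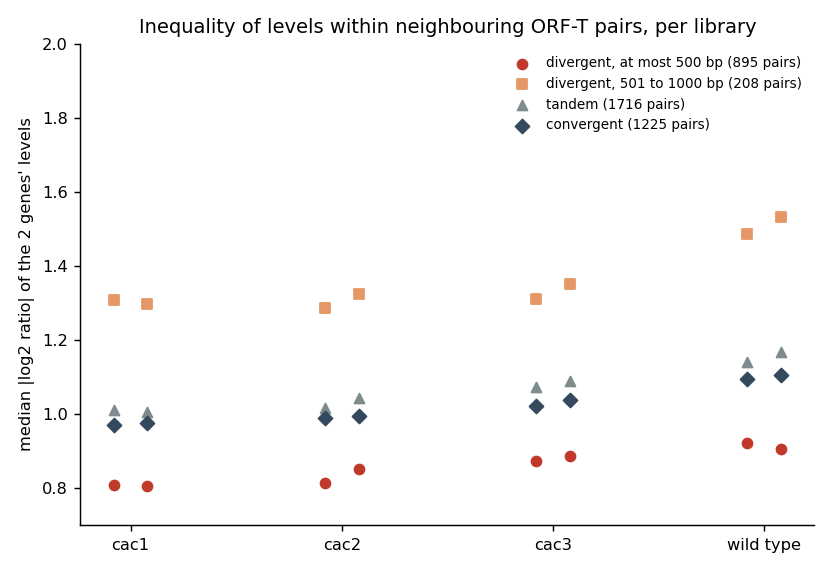
Median absolute log2 ratio between the levels of 2 neighbouring ORF-Ts in each library of cac1, cac2, cac3 and wild type, for 895 divergent pairs and for 3 other kinds of neighbours. In each kind all 6 mutant libraries lie below both wild-type libraries.

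The authors also counted reads in a window upstream of each ORF-T, and in divergent pairs its values correlated with those of the partner. Its width was the distance between the 5′ ends plus 100 bp for 1784 of 1810 member windows; the sources used here give neither its exact position nor its strand. Across 1808 windows the change in the window had a Spearman correlation of 0.64 with the change of the partner gene and 0.06 with that of the window's own gene, in the mean of the mutants. Wild-type window levels correlated at 0.52 with the partner and 0.07 with the own gene. Since the window is 100 bp wider than the gap, it may reach into the partner gene. The same reads could then enter both values and make them correlate by construction, which was not tested. The window held more reads per length than the partner gene body, with a median log2 ratio of 1.04. In the mean of the mutants 89 of 1807 member windows rose (4.93%) and 99 fell (5.48%), beside 18.1% and 4.39% of all 5494 windows tested. Of 3356 windows of ORF-Ts outside divergent pairs 863 rose (25.7%) and 124 fell (3.69%), with a median change of 0.40 against -0.02 in member windows. Member windows had a median of 1250 reads over the 8 libraries and a width of 288 bp, and the others 310 reads and 428 bp. The difference between the 2 sets was not tested.

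At the 500 bp limit stood 6 pairs just inside it and 5 just outside. Inside, at 500 bp, POR2 and SDP1 rose, by 0.31 and 1.13 in the mean of the mutants, and YJL043W rose by 0.86 beside GYP6 at 0.03. The other 4 pairs had no gene past the threshold, with BET1 and CFD1 at -0.19 and 0.07, ESBP6 and NAF1 at 0.09 and 0.09, RXT3 and RPL31A at -0.02 and -0.12, and BRF1 and CPD1 at -0.06 and -0.13. Outside, at 508 bp, KAR4 rose by 0.25 beside YCL056C at 0.05, and MUP3 rose by 0.29 beside CBP2 at 0.02. YHP1 and PPN1 stood at -0.05 and 0.07, ATG27 and RPL17B at 0.02 and -0.17, and TPO4 and MOD5 at 0.06 and -0.05.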

How the data were processed

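Reads were counted by the authors, and the counts per ORF-T and per noncoding feature, with estimated counts in windows upstream of ORF-Ts (whole numbers, or 0.5 where no read was counted) and RPKM, are the deposited values, per the file headers. The NET-seq protocol was an established one, per the labels' protocols. The sources used here give no aligner, genome build or counting rule, and coordinates are those of the files. Symbols came from the files, and 1784 members matched RefSeq symbols. The divergent pairs, gene lists and tests were chosen with earlier results of these data known.

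RPKM was recomputed from the counts. The 7271 features that reached 1 RPKM in 2 libraries or more entered an edgeR 4.0.16 quasi-likelihood fit (R 4.3.3) on all 8 libraries with 1 coefficient per genotype, TMM scaling over ORF-Ts (factors 0.964 to 1.02) and Benjamini-Hochberg adjustment over all of them. For the pair test, both genes of a pair entered 1 fit with a coefficient per library and a plus-over-minus coefficient per genotype, adjusted over the 905 pairs tested. Estimated counts of 5494 windows were rounded to whole numbers for the same test. The biological coefficient of variation was 8.13% for features and 6.86% for pairs. Replicates of a genotype differed beyond sampling noise (chi-square per degree of freedom 4.00 to 6.85). The replicate deviations of same-numbered libraries correlated in all 6 comparisons of genotypes (Pearson r 0.267 to 0.449), so the numbers pair the samples. The main fit leaves this pairing out, and the changes, SEs and adjusted p given are from it unless another setting is named. A fit with replicate number as a block was run beside the main one, and it called more members and more unequal pairs. Nothing further in the labels says what a number shares. Both scripts were tested on simulated data.

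Pairs named by their values have a mean of at least 5 RPKM on both genes. They are the 5 largest differences with the ratios of all mutant libraries on one side of wild type, the 4 strongest pairs that rose together, fell together or went opposite ways, and the 3 largest differences per mutant and 2 between mutants. Named without that limit, as HOS2 / IME4 was, are up to 4 called genes of each list and promoters fixed by name (core histone, galactose, MAG1 with DDI1, deleted genes). SPS18 and SPS19, also fixed by name, overlap and form no pair. Alternatives were other scalings, no filter, DESeq2 1.42.0, limma 3.58.1 on log2 ratios with a pseudocount of 1, the block, a distance of at most 300 bp, and leaving out each library. Some results of the gene lists are not reported here.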

Additional observations from a re-analysis of the deposited data

Results flagged for a closer look

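Direct tests between mutants picked out 3 pairs, whose plus-over-minus ratio differed between 2 mutants by the edgeR quasi-likelihood test. AAC1 / FET3 stood apart in cac1 against cac3, at -1.24, and in cac2 against cac3, at -0.83. RIB4 / RRP40 stood apart in cac2 against cac3, at 0.81. DSS4 / RLF2, which holds the gene deleted in cac1, stood apart in cac1 against cac3, at -1.37, and in cac1 against cac2, at -1.28.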

How the results depend on the processing

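Of 28 named pair differences past the threshold, 23 remained past it by DESeq2, 27 by limma, 28 with replicate number as a block, 23 on leaving out wild-type replicate 1 and 5 on leaving out replicate 2 of wild type. Of 51 named gene changes, 33 remained by DESeq2, 47 without further scaling, 51 with the block, 36 on leaving out wild-type replicate 1 and 12 on leaving out replicate 2 of wild type. Of the named values, 13 changed sign under 1 or more alternatives, among them the change of YPL199C and the difference of HTA2 / HTB2 without wild-type replicate 2, at -0.26 and 0.09, and none of the 13 was past the threshold in either setting. Without further scaling, members risen and fallen numbered 261 and 47 in the mean of the mutants, 249 and 48 for cac1, and 210 and 33 for cac2, and pairs risen and fallen together numbered 24 and 3. DESeq2 gave 66 and 39 members in the mean of the mutants, 61 and 44 for cac1, 52 and 20 for cac2, and 15 and 8 for cac3, with 2 pairs risen together, 1 fallen together, 2 opposite and 95 with 1 gene called, and 32, 32, 26 and 5 unequal pairs in the mean, cac1, cac2 and cac3. The replicate block gave 236 and 204 members in the mean, 215 and 184 for cac1, 208 and 136 for cac2, and 97 and 66 for cac3, with 20, 14 and 16 pairs risen, fallen and opposite. Under this pairing the unequal pairs numbered 184 in the mean, 158 in cac1, 154 in cac2, 75 in cac3, 27 between cac1 and cac3 and 9 between cac2 and cac3, and it lost no named call. Pairs at most 300 bp apart, a smaller set by construction, gave 5, 3 and 3 pairs risen, fallen and opposite, 60 unequal pairs in the mean, 38 in cac1, 53 in cac2, 8 in cac3, and 0 between cac1 and cac3 and 0 between cac2 and cac3. By limma 15 pairs were unequal in cac3 and 1 between cac2 and cac3. With at least 20 RPKM the inequality of levels differed by -0.059. Under the replicate block its difference is -0.074 by construction, with an exact permutation p of 0.0625. The Pearson correlation of the changes over all 904 pairs was 0.13 in cac2. Leaving out 1 library gave 14 to 163 members risen and 12 to 112 fallen in the mean, 17 to 138 and 15 to 122 for cac1, 21 to 135 and 5 to 81 for cac2, and 1 to 38 and 1 to 20 for cac3. It gave 0 to 11 pairs risen together, 0 to 7 fallen together, 1 to 8 opposite and 24 to 225 with 1 gene called. Unequal pairs ran over 1 to 142 in the mean, 1 to 103 in cac1, 11 to 112 in cac2, 1 to 38 in cac3, 1 to 4 between cac1 and cac3 and 0 to 3 between cac2 and cac3. The inequality of levels ran over -0.083 to -0.066. Where 1 wild-type library is left, it is assumed to vary like the other groups. The causes of these shifts were not tested. Depth, 1880299 reads in the smallest library, limits weakly transcribed genes such as IME4 and IRC18.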
